A study of Mus musculus with 9 samples.

Results

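The 9 genes described here, Krt1, Krt5, Krt10, Krt14, Krt15, Dsp, Sfn, Trp63 and Perp, are typical of the epidermis, the outer cell layer of skin, and were measured in RNA of whole skeletal muscle. They were chosen by symbol, and each matched 1 of the 55471 gene IDs counted. The muscle was the gastrocnemius, a calf muscle, of neonatal mice at postnatal day 0 to 1 on a C57BL/6 background, as the labels give it for all 9 mice, with C57BL/6JRj named in the study's methods for the matings. It came from 5 Shank3Δ11(-/-) mice (KO1 to KO5), in which both copies of Shank3 lack exon 11 in every cell of the body, and from 4 Shank3(+/+) mice (WT1 to WT4), with 1 library per mouse. The study asked how loss of Shank3, a scaffold protein best known from synapses, alters gene expression in muscle. It left out KO2 and KO4, so the main comparison set the remaining KO1, KO3 and KO5 beside the 4 Shank3(+/+) mice, and all 9 mice were compared again. The labels give neither sex nor litter.

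Keratins are filament proteins that assemble as pairs of a type I and a type II chain. Cells of the basal layer of the epidermis make Krt5 (type II) with Krt14 (type I), and Krt15 (type I) is a further basal keratin that also marks stem cells of the hair follicle. On leaving the basal layer the cells switch to Krt1 (type II) and Krt10 (type I). Dsp encodes desmoplakin, which ties keratin filaments to desmosomes, the rivets between neighbouring cells. Perp encodes a membrane protein of desmosomes and is a target of p53 and p63. Trp63 encodes p63, the transcription factor that sets up stratified epithelium, and Sfn encodes 14-3-3 sigma, an adaptor protein of keratinocytes. Muscle fibres themselves are known for desmin filaments, not for epidermal keratins.

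The bases just before the transcription start are shown for 3 genes of different behaviour over the mice, Krt5 (the highest coefficient of variation), Krt10 (present at a steady level) and Dsp (a desmosomal gene). They are the 110 bases before the RefSeq start in GRCm38.p6, and cover chr15:101712906-101713015 on the minus strand, chr11:99389365-99389474 on the minus strand and chr13:38151184-38151293 on the plus strand. Capitals mark matches to TATAAA or GGGCGG on either strand, which do not overlap.
Krt5: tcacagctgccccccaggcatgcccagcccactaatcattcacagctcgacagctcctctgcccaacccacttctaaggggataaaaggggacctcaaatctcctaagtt
Krt10: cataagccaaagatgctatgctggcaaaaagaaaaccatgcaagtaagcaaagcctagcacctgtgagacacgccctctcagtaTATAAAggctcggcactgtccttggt
Dsp: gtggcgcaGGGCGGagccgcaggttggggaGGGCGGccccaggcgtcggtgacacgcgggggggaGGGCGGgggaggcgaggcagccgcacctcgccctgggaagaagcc
Over the 250 bases before the start, Krt10 held 1 match to TATAAA, Dsp held 4 to GGGCGG, and Krt5 and Sfn held none to either. None of the 4 genes matched TGANTCA. Of 32851 RefSeq windows of this length, 12.4% held TATAAA, 32.7% GGGCGG and 6.75% TGANTCA on either strand. A match is a run of letters and was not tested as a binding site.

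Where the genes lie bears on how their reads can be assigned. In GENCODE M21 (GRCm38) Krt5 covers chr15:101707070-101712898 and Krt1 chr15:101845426-101850794, both on the minus strand and 12.1 and 12.3 Mb beyond the end of Shank3 on the same chromosome. Krt10 (chr11:99385254-99389364), Krt15 (chr11:100131758-100135928) and Krt14 (chr11:100203162-100207548) lie together on the minus strand of chromosome 11. Dsp covers chr13:38151294-38198577 and Trp63 chr16:25683763-25892102 on the plus strand, Perp chr10:18845020-18857073 on the plus strand and Sfn chr4:133600556-133602168 on the minus strand as a single exon.

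Keratin genes share long stretches of coding sequence, so part of their reads could also match a relative. Of the 50-base words in its transcripts, Krt14 shared 13.9% with other genes, mostly with Krt16, and Krt5 shared 12.2%, mostly with Krt6a. The longest stretch that Krt14 shares with Krt16 is shown in capitals, with 15 bases of Krt14 on either side.
Krt14, coding bases 306 to 439, chr11:100207017-100207150, minus strand: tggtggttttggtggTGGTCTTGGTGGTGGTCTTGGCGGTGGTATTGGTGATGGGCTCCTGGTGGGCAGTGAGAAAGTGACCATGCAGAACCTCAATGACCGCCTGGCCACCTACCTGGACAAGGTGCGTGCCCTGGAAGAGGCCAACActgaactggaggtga
This stretch is 134 bases long. The relatives themselves were counted at 0 to 7 reads per mouse for Krt16 and 0 to 10 for Krt6a, far below Krt14 and Krt5 in the mice where those were high. Sfn shared 15.03% of its words, mostly with the pseudogene Gm7850, so its counts are uncertain to that extent. Krt15 shared 0.64%, and Krt1, Trp63 and Perp shared none. Genes annotated on the opposite strand overlap 499 exon bases of Dsp (Gm10129), 146 of Krt10 (Gm11940) and 129 of Krt5 (Gm44323). The sources used here state neither how reads with several matches were treated nor whether strand was used.

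RNA of these epidermal genes was a trace in every library, and which cells it came from was not tested. The libraries held 26444372 to 40471957 counts, of which the 9 genes together took 485 to 2246. Levels are in CPM, the read-count scale corrected for library size and edgeR's TMM factors, and 3 counts, the one-sided 95% Poisson limit for a count of 0, come to 0.0741 to 0.113 CPM at these library sizes. The sum of the 9 genes ran from 16.5 CPM in KO2 to 73.0 CPM in WT4. Markers of the labelled tissue were abundant in all mice: the 7 skeletal muscle genes summed to 46544 to 54433 CPM, led by Acta1 (skeletal actin), Myh8 (perinatal myosin) and Ckm (muscle creatine kinase). In bulk RNA, fewer cells of a type and less RNA per cell cannot be told apart.

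Krt5, the basal type II keratin, had the highest coefficient of variation of the 9 genes. It was counted 26 times in KO1, 22 in KO2, 160 in KO3, 137 in KO4 and 278 in KO5, and 52 times in WT1, 256 in WT2, 32 in WT3 and 682 in WT4. In CPM these are 0.814, 0.747, 5.03, 3.60 and 10.5 in KO1 to KO5 and 1.60, 7.56, 1.09 and 22.2 in WT1 to WT4. Each genotype held both low and high mice, and the highest mouse had 29.7 times the level of the lowest. The coefficient of variation over the 9 mice was 118%, or 16.0 times what counting error alone gives at the mean count.

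Krt14, the basal type I partner of Krt5, was counted 11, 10, 69, 60 and 98 times in KO1 to KO5 and 17, 114, 17 and 190 times in WT1 to WT4. That is 0.344, 0.339, 2.17, 1.58 and 3.72 CPM in the Shank3Δ11(-/-) mice and 0.523, 3.37, 0.580 and 6.18 CPM in the Shank3(+/+) mice. WT4, KO5 and WT2 were again the 3 highest mice, and KO1 and KO2 the 2 lowest. The third basal keratin, Krt15, had 11, 3, 33, 30 and 43 counts in KO1 to KO5 and 9, 93, 19 and 108 in WT1 to WT4. Its 3 counts in KO2 were the fewest of any of the 9 genes in any mouse, with an exact 95% Poisson interval of 0.619 to 8.77 counts, so the 34.5-fold range of Krt15 in CPM rests on a barely detected low end. WT4 (3.51 CPM) and WT2 (2.75 CPM) were the highest mice for Krt15, ahead of KO5 (1.63 CPM).

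Of the suprabasal pair, Krt1 varied widely and Krt10 little. Krt1 was counted 18, 47, 148, 187 and 56 times in KO1 to KO5 and 83, 69, 81 and 238 times in WT1 to WT4, or 0.563 CPM at the lowest (KO1), 2.55 at the median and 7.74 at the highest (WT4). For Krt1 KO4 (4.91 CPM) and KO3 (4.65 CPM) came next after WT4, whereas KO5 and WT2, high for Krt5, were at 2.12 and 2.04 CPM. Krt10 had 129, 158, 202, 283 and 158 counts in KO1 to KO5 and 182, 206, 176 and 324 in WT1 to WT4. It was at 4.04 CPM or more in each of the 9 mice, and its highest mouse, WT4 at 10.5 CPM, had 2.61 times the level of its lowest, KO1.

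Among the junction genes, Dsp was counted 5, 14, 39, 49 and 81 times in KO1 to KO5 and 25, 49, 24 and 105 times in WT1 to WT4. Its level of 0.157 CPM in KO1 rests on those 5 counts, with an exact 95% Poisson interval of 1.62 to 11.7 counts. WT4 at 3.41 CPM and KO5 at 3.07 CPM were the highest mice for Dsp. Perp had 62, 24, 125, 153 and 165 counts in KO1 to KO5 and 109, 100, 72 and 177 in WT1 to WT4. Its highest mouse was KO5 at 6.26 CPM, followed by WT4 at 5.76, and its lowest was KO2 at 0.815 CPM.

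Sfn and Trp63 were steady in comparison. Sfn was counted 73, 63, 88, 99 and 99 times in KO1 to KO5 and 86, 92, 54 and 128 times in WT1 to WT4, between 1.84 CPM (WT3) and 4.16 CPM (WT4). Trp63 had 213, 144, 166, 212 and 267 counts in KO1 to KO5 and 161, 173, 196 and 294 in WT1 to WT4, between 4.89 CPM (KO2) and 10.1 CPM (KO5), with WT4 next at 9.56 CPM. The highest mouse had 2.26 times the level of the lowest for Sfn and 2.07 times for Trp63. Even so, the coefficients of variation of Sfn (27.0%), Trp63 (30.6%) and Krt10 (28.2%) were 2.51, 4.36 and 4.01 times that of counting error. WT4 was the highest mouse for 7 of the 9 genes and KO5 for the other 2, while the lowest was KO2 for 5, KO1 for 3 and WT3 for 1.

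**Figure D1:**
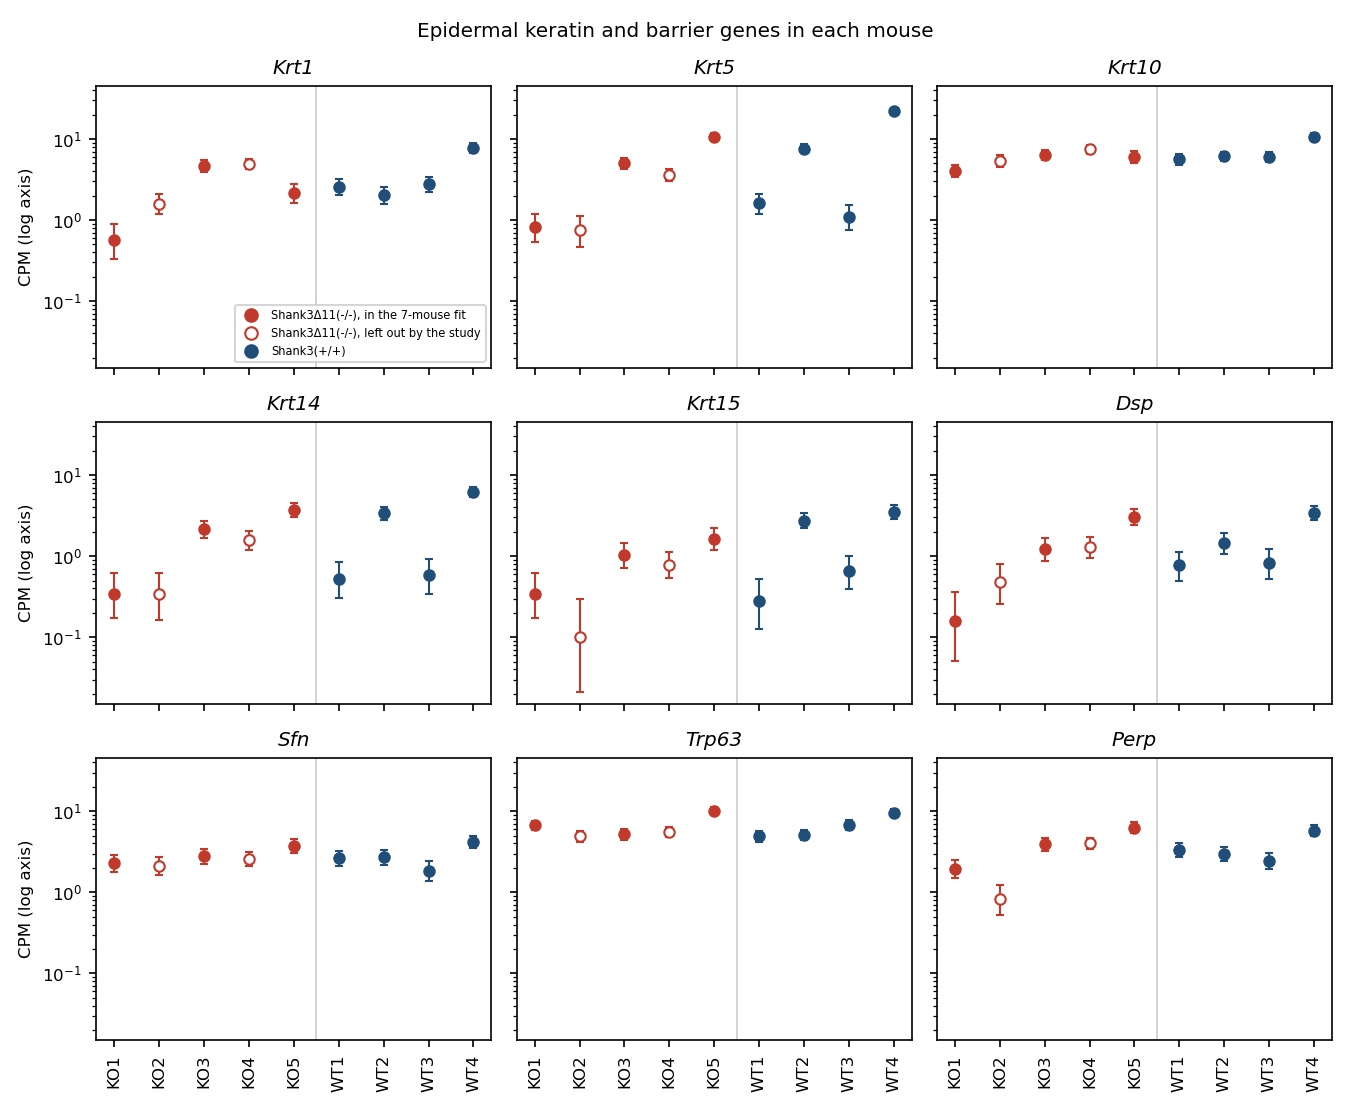
Level of each of the 9 genes in CPM (log axis) in each mouse, with bars for the exact 95% Poisson interval of the count, which cover counting error only. KO5 and WT4 stand high in most panels and KO1 and KO2 low, while Krt10, Sfn and Trp63 stay within 2.61-fold.

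Compared between genes per kilobase of exon, the medians over the 9 mice ran from 2.84 CPM per kb for Krt10 through 1.72 for Perp, 1.64 for Sfn, 1.64 for Krt5, 0.896 for Krt14, 0.664 for Trp63, 0.578 for Krt1 and 0.446 for Krt15 to 0.127 for Dsp. Ranges of neighbours in this order overlapped throughout. In WT4, Krt5 reached 10.1 CPM per kb against 4.98 for Krt10, whereas in KO2 Krt5 was at 0.340 and the lowest Krt10 of any mouse was at 1.91. The length is that of all annotated exons of a gene together, which is long for Krt1 (4.42 kb), Trp63 (8.39 kb) and Dsp (9.66 kb) and lowers their values per kb.

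None of the 9 genes separated the genotypes. All 9 passed the filter on low counts, and 0 of 9 were called at p below 0.05 with an FDR below 25% in edgeR's quasi-likelihood test of the 7 mice. Among all 21809 genes tested that criterion called 0.0%, and an unadjusted p below 0.05 was reached by 2.08% of all genes and by 0 of the 9. Levels of the 2 groups overlapped for all 9 genes, whereas 2.84% of all genes tested had groups that did not overlap. With all 9 mice the count of called genes was again 0 of 9 (0.0% of 21735 genes tested), as was the count with an unadjusted p below 0.05 (2.03% of all). DESeq2 and limma-voom, run on the 7 mice, called 0 of the 9 as well.

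The size of the difference is known only loosely for the variable genes. The mean of Krt5 was 5.46 ± 4.88 CPM (SD, n = 3) for Shank3Δ11(-/-) mice beside 8.11 ± 9.83 CPM (SD, n = 4) for Shank3(+/+) mice. Its log2 fold change was -0.59 (95% interval -3.77 to 2.58, FDR = 1.00 in edgeR), and the exact 2-sided permutation test on log2 CPM gave p = 0.914, against a smallest possible p of 0.0286 over the 35 splits of 7 mice. For Krt14 the log2 fold change was -0.39 (95% interval -2.86 to 2.08), for Krt15 -0.87 (-2.86 to 1.12), for Krt1 -0.63 (-2.30 to 1.04) and for Dsp -0.15 (-2.13 to 1.82).

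The steadier genes were measured more closely. The mean of Krt10 was 5.46 ± 1.25 CPM (SD, n = 3) for Shank3Δ11(-/-) mice beside 7.06 ± 2.33 CPM (SD, n = 4) for Shank3(+/+) mice, and its log2 fold change was -0.38 (95% interval -0.95 to 0.19). Its unadjusted p of 0.170 in edgeR was the lowest of the 9 genes (FDR of 1.00, exact permutation p = 0.514). Sfn had a log2 fold change of 0.03 (95% interval -0.59 to 0.66), Trp63 of 0.15 (-0.47 to 0.77) and Perp of 0.14 (-0.73 to 1.01). Exact permutation p-values for the 9 genes lay between 0.400 and 0.914 with 7 mice, and between 0.341 and 0.960 with 9 mice, where the smallest possible p is 0.00794.

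Direction was mixed, with 6 genes lower and 3 higher in Shank3Δ11(-/-), and the median log2 fold change of the 9 genes was -0.38 beside -0.0081 for all genes tested. With KO2 and KO4 added all 9 were lower, with a median of -0.39 beside 0.0017, and the widest difference was that of Krt15 (-1.21, 95% interval -2.90 to 0.47, FDR = 1.00 in edgeR, exact permutation p = 0.341). Single mice set the sign for most genes. Without WT4 the log2 fold change became 0.65 for Krt5, 0.45 for Krt14 and 0.52 for Dsp, and without KO1 it became 0.13 for Krt14 and 0.39 for Dsp. Without KO5 it turned to -0.18 for Sfn, -0.16 for Trp63 and -0.32 for Perp, and without WT3 to -0.12 for Sfn. Krt10 and Krt15 stayed lower whichever mouse was left out, and Krt1 too, although without WT4 its log2 fold change was -0.0011 and without KO3 -1.52. Without KO5 the value for Krt5 was -1.49.

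**Figure D2:**
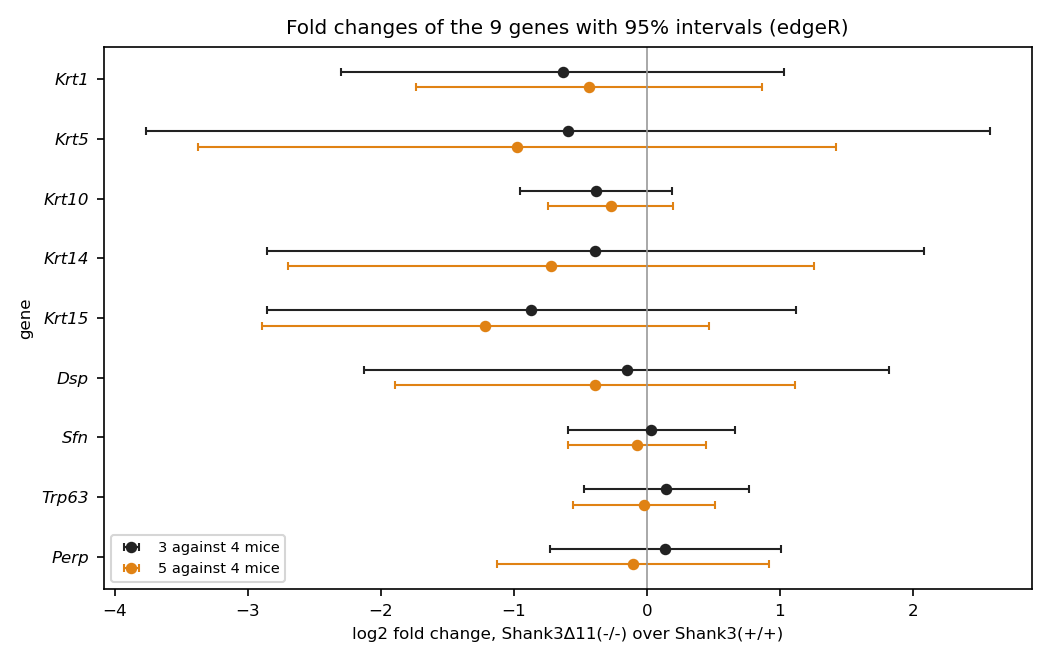
Log2 fold change of each gene, Shank3Δ11(-/-) over Shank3(+/+), with 95% intervals from edgeR for 3 against 4 mice (black) and 5 against 4 mice (orange). Every interval crosses 0, and those of Krt10, Sfn and Trp63 are the narrowest.

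The summed CPM of Krt1, Krt5, Krt10, Krt14 and Krt15 was taken as a description of each mouse. From the lowest it was 6.10 in KO1, 8.15 in KO2, 10.6 in WT1, 11.1 in WT3, 18.3 in KO4, 19.2 in KO3, 21.8 in WT2, 24.0 in KO5 and 50.1 in WT4. At the low end most of the sum was the steady Krt10, with 4.04 of 6.10 CPM in KO1, 5.36 of 8.15 in KO2, 5.60 of 10.6 in WT1 and 6.00 of 11.1 in WT3, against 10.5 of 50.1 in WT4. The genotypes alternate along this order, with Shank3Δ11(-/-) mice at the bottom and a Shank3(+/+) mouse at the top. The ratio of the group means was 0.703 with 7 mice and 0.648 with 9, and 1.14 without WT4 and 0.925 without KO1. Xist, the RNA that coats the inactive X chromosome in females, ranged from 619 to 925 CPM in 2 mice of each genotype (KO3 with KO5, WT3 with WT4) and was at 3.23 CPM or less in the others. The keratin sums of those 4 mice, 11.1 to 50.1 CPM, overlapped those of the other 5, 6.10 to 21.8 CPM.

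Krt5 and Krt14 varied together, with a ratio that differed less than either gene. There were 1.88 (WT3) to 3.59 (WT4) counts of Krt5 for each count of Krt14, with a median of 2.32. WT4, with an exact 95% binomial interval of 3.05 to 4.24, stood above WT2 (2.25, interval 1.79 to 2.83). On the log2 CPM scale Krt14 correlated with Krt5 over the 9 mice at Pearson r = 0.990 and Spearman rho = 0.983 (exact permutation p = 1.4e-05 and 5.0e-05, adjusted over 8 relations 0.00011 and 0.00040), and r was 0.987 without KO2 and WT4, the mice farthest from the median of Krt5.

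The other genes followed Krt5 in varying degree. For Krt15 r was 0.917 and rho 0.933 (exact permutation p, adjusted, 0.0013 and 0.0020), for Dsp 0.908 and 0.950 (0.00091 and 0.0014), for Sfn 0.900 and 0.917 (0.00091 and 0.0026) and for Perp 0.819 and 0.867 (0.0067 and 0.0072). Without KO2 and WT4 these r values were 0.863, 0.875, 0.819 and 0.805. Krt10 reached r = 0.762 and rho = 0.717 (exact permutation p, adjusted, 0.013 and 0.049), and r fell to 0.575 without KO2 and WT4. Krt1 (r = 0.645, rho = 0.550, adjusted exact permutation p 0.065 and 0.152) and Trp63 (r = 0.555, rho = 0.517, adjusted exact permutation p 0.128 and 0.162) did not pass the threshold. The unadjusted p-values ran from 1.4e-05 for Krt14 to 0.128 for Trp63 for r. Neither genotype has the 6 mice needed for a correlation within it, and the libraries share their normalization.

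The balance of basal to suprabasal keratin differed between mice by more than counting error. There were 0.201 counts of Krt1 per count of Krt5 in KO5 (exact 95% interval 0.148 to 0.269), 0.270 in WT2 and 0.349 in WT4, but 2.14 in KO2 and 2.53 in WT3 (1.66 to 3.94). Both genotypes again appear at each end. Counts of Krt10 per count of Krt1 fell from 7.17 in KO1 (4.36 to 12.5) to 1.36 in WT4 (1.15 to 1.62) and 1.36 in KO3.

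Genes of the outermost layers were mostly near 0 apart from filaggrin. Of the 15 cornified envelope genes, which build the dead outer shell of the skin, 4 passed the filter and 0 reached an unadjusted p below 0.05. Flg encodes filaggrin, which bundles keratin filaments in that layer. It was counted 80, 67, 289, 405 and 592 times in KO1 to KO5 and 125, 51, 39 and 962 times in WT1 to WT4. Lor (loricrin, 10 to 88 counts) was lower in every mouse. Cdsn (corneodesmosin, 30 to 101 counts) was lower in all but WT3, where it had 51 counts against 39 for Flg. Ivl, the gene of involucrin, had 4 counts at most. WT2 stood apart here, with 0.199 counts of Flg per count of Krt5 (exact 95% interval 0.145 to 0.270), whereas the other 8 mice had 1.22 (WT3, 0.744 to 2.01) to 3.08 (KO1). This ratio was chosen after its values were seen.

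**Figure D3:**
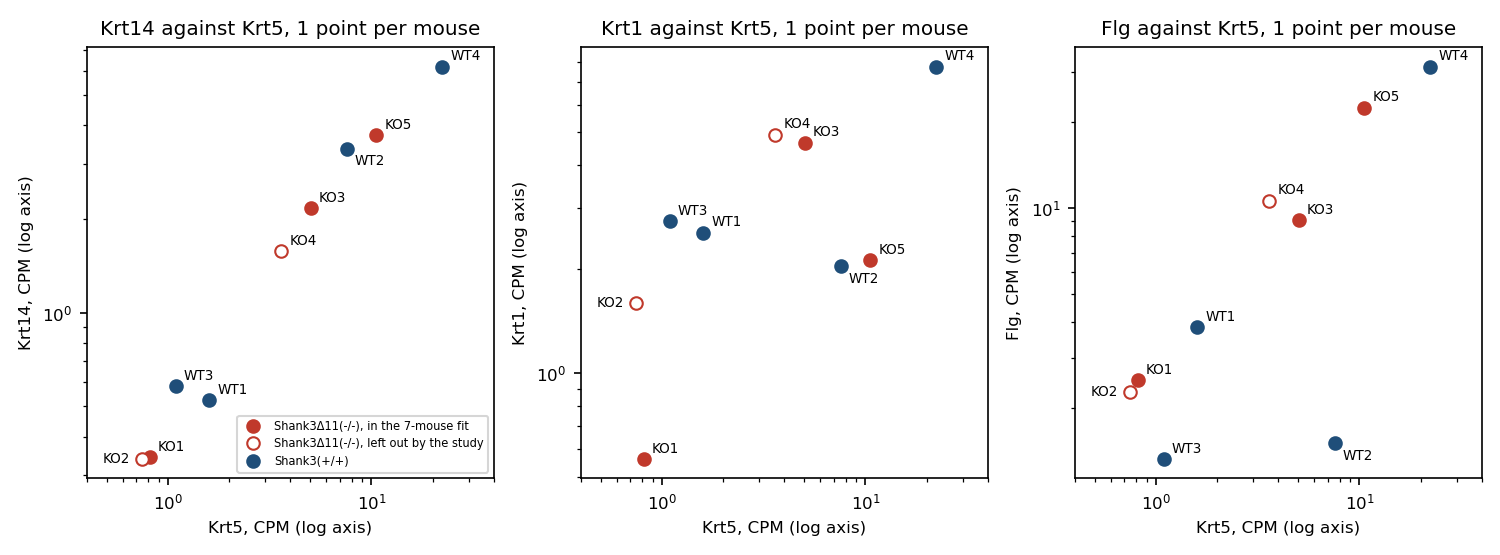
Level of Krt14, Krt1 and Flg against that of Krt5 in CPM, both axes logarithmic, with 1 point per mouse. Krt14 lies along a line with Krt5 in all 9 mice, while WT2 and KO5 lie low for Krt1 and WT2 lies low for Flg.

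Other lists of epidermal genes were described by the same counts. Of 10 suprabasal genes 4 passed the filter, and only Calml3, a calmodulin-like gene, had an unadjusted p below 0.05 (log2 fold change -0.65, FDR = 1.00 in edgeR, 19 to 33 counts in KO1, KO3 and KO5 and 33 to 59 in Shank3(+/+)). In CPM Calml3 was at 0.721 to 1.04 in KO1, KO3 and KO5 and at 1.07 to 1.74 in Shank3(+/+). These groups did not overlap, as was so for 2.84% of all genes tested. With all 9 mice Calml3 did not reach that p (log2 fold change -0.42). KO4, the largest library, had its highest count, 61, but at 1.60 CPM lay below WT2 (1.74) and WT1 (1.63). Sbsn (suprabasin) had 111 to 255 counts per mouse, Dmkn (dermokine) 11 to 147 and Krtdap 19 to 87, and Krt2 had 0 in all mice. Of 9 basal layer genes 8 passed the filter and 0 reached that p. The hemidesmosome integrin Itgb4 had 234 to 413 counts, a narrow spread beside Lgals7 (galectin 7), which ran from 38 in KO2 to 799 in WT4. The summed CPM of the suprabasal list ran from 6.79 (KO1) to 16.0 (KO5) and that of the basal list from 43.1 (KO2) to 89.6 (WT4).

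The summed desmosome and barrier lists were each carried by 1 gene that varied little. Jup, the gene of plakoglobin, a junction protein also made in muscle and heart, was at 51.4 to 67.2 CPM, far above Dsp, and Evpl (envoplakin) and Dsc2 (desmocollin 2) were at 1.20 to 3.57 and 1.25 to 3.17 CPM. Jup made up 76.9% to 90.1% of the desmosome sum. Without it the other 12 genes summed to 7.08 (WT1) to 18.2 CPM (WT4), and Ppl (periplakin, 11 to 143 counts), Pkp3 (plakophilin 3, 5 to 53) and Dsc3 (desmocollin 3, 1 to 52), picked after their values were seen, varied widely between mice. Of the 13 desmosome genes 11 passed the filter and 0 had an unadjusted p below 0.05, with a median log2 fold change of -0.02. Among 13 genes of barrier lipids and tight junctions 5 passed the filter and 0 had such a p, with Cldn1 (claudin 1, a tight junction protein) at 12.7 to 19.6 CPM, Grhl1 at 0.840 to 3.72 and Elovl4 at 1.05 to 2.24. Cldn1 made up 69.7% to 79.6% of that sum. Of the 5 simple epithelial keratins, found outside skin, 4 passed the filter. Krt8 was at 5.73 to 8.78 CPM and Krt18 at 2.38 to 5.41, and Krt7 alone had an unadjusted p below 0.05 (log2 fold change -1.35, FDR = 1.00 in edgeR), on 10, 8 and 1 counts in KO1, KO3 and KO5 and 10 to 23 in Shank3(+/+). In CPM Krt7 was at 0.0379 to 0.313 in KO1, KO3 and KO5 and at 0.341 to 0.715 in Shank3(+/+). These groups did not overlap, as was so for 2.84% of all genes tested. With all 9 mice Krt7 did not reach that p either (log2 fold change -0.83). KO4, at 19 counts and 0.499 CPM, lay within the Shank3(+/+) range, and KO2, at 10 counts and 0.339 CPM, just below it in CPM.

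The hair follicle list had its highest sums in KO5 and WT4. Krt17, a keratin of follicles and other skin appendages, had 6, 2, 26, 49 and 153 counts in KO1 to KO5 and 25, 127, 4 and 158 in WT1 to WT4, so its 3 high mice were those of Krt14. Krt79 was counted 2 to 35 times and Tchh (trichohyalin, of the inner root sheath) 63 to 187 times. Krt73, named after its values were seen, differed from these, with 46 counts in WT1 and 0 to 16 in the other mice. Of the 12 genes 7 passed the filter and 0 had an unadjusted p below 0.05, and Dsg4, a desmoglein of the hair shaft, had 0 counts. The summed level of the list was 17.0 CPM in KO5 and 16.1 in WT4, against 2.82 in KO1.

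The general epithelial and melanocyte lists had their highest sums in KO5 and WT4, though not all their genes did. The summed CPM of 7 general epithelial genes was 18.1 in KO5 and 13.3 in WT4 and 4.09 to 8.17 in the other mice, with Cdh1 (E-cadherin) at 85 and 96 counts in those mice and 5 to 42 elsewhere, Esrp1 at 110 and 75 against 2 to 17, and Esrp2, both being epithelial splicing factors, at 77 to 177 throughout. The 5 melanocyte genes, of the pigment cells of skin, summed to 18.1 CPM in both KO5 and WT4 and to 4.85 to 11.1 CPM elsewhere. Dct, an enzyme of melanin synthesis, ran from 59 counts in KO1 to 427 in WT4, but Pmel, a melanosome protein, only from 82 to 136 and Tyrp1 from 3 to 33. Of the 7 epithelial and 5 melanocyte genes 7 and 3 passed the filter and 0 reached an unadjusted p below 0.05.

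Markers of other tissues moved differently. Adipocyte genes summed to 283 CPM in KO5, 25.8 in KO1 and 6.96 in KO2, and to 0.325 to 2.76 CPM in the other 6 mice. Adipoq (adiponectin), Plin1 (perilipin) and Cfd (adipsin) each had an unadjusted p below 0.05 and a higher mean in Shank3Δ11(-/-), with an FDR of 1.00 in edgeR, and Cfd was at 3821 counts in KO5 and 0 in KO4 and WT3. With all 9 mice 2 of the 3, Plin1 and Cfd, had such a p. KO5 was thus high in both fat and skin genes, while KO1 had the second highest fat and the lowest keratin level. Their part in the keratin levels was not tested. The 5 endothelial genes, led by Cdh5, Pecam1 and Kdr, summed to 509 to 713 CPM and varied 1.40-fold, and the muscle genes 1.17-fold. Among 8 p53 targets, a list of interest because Perp and Sfn respond to p53, the sum varied 1.30-fold (690 to 895 CPM), with Cdkn1a at 241 to 386 CPM, Ccng1 at 213 to 385 and Mdm2 at 47.9 to 67.5, and 0 of 8 had an unadjusted p below 0.05.

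**Figure D4:**
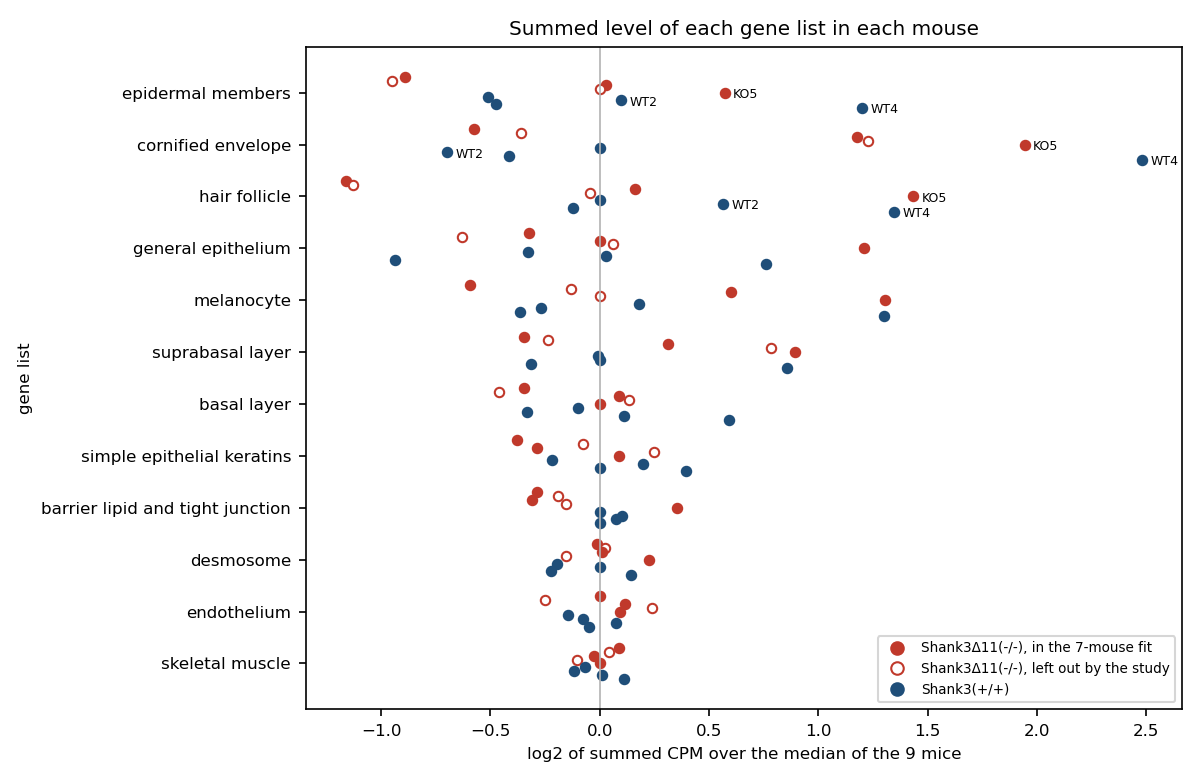
Summed CPM of each gene list in each mouse, as log2 of its ratio to the median of the 9 mice. The adipocyte and p53 target lists are not drawn. The cornified envelope, hair follicle, epithelial and melanocyte lists spread widely, with KO5 and WT4 at the high end, while the endothelium and muscle lists stay near 0, as does the desmosome list, most of whose sum is Jup.

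Over the 13 other lists, 113 genes were listed and 76 passed the filter. Of these, 3 were higher and 2 lower in Shank3Δ11(-/-) at an unadjusted p below 0.05, and 0 were called. These 5 are 6.58% of the 76, beside 2.08% of all genes tested, and the 3 higher ones are the adipocyte genes Adipoq, Plin1 and Cfd, each highest in KO5.

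A search of the 21726 other genes tested for those most like the 5 keratins in log2 CPM over the 9 mice gave no further skin gene among the first 10. They were Rbm8a, Raly, Gm10120, Gm42688, Gm43579, Gm13092, Bloc1s1, Ndufs5, Gm10146 and Pigyl, with Pearson r of 0.933 to 0.961 as a description. These genes varied only 1.24-fold (Raly) to 1.86-fold (Gm13092) between the highest and lowest mouse. The keratins themselves reached r = 0.982 (Krt14), 0.979 (Krt5), 0.933 (Krt15), 0.843 (Krt10) and 0.753 (Krt1) with their own mean, which they enter. The members that do not enter it had r = 0.922 (Dsp), 0.814 (Perp), 0.813 (Sfn) and 0.503 (Trp63). Of the 21726 other genes, 2.44% had r above 0.8. The share of counts on genes under 1 kb of exon, mitochondrial genes left out, was 7.31% to 8.34% in the 5 mice with the highest keratin sums (WT4, KO5, WT2, KO3 and KO4). It was 6.36% to 6.90% in WT3, WT1 and KO2, and 7.59% in KO1, the mouse with the lowest sum. Its part in the keratin levels was not tested.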

How the data were processed

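RNA of the gastrocnemius of 9 mice was sequenced by a service company from total RNA. Per the submitters' processing notes and the study's methods, the authors mapped reads with HISAT2 to mm10 (GRCm38), kept concordantly mapped reads and counted them per gene with featureCounts. The deposited values are raw counts per Ensembl gene, with no normalization; the annotation release is not given in the sources used here. Symbols came from a table that matched 55144 of 55471 IDs. All columns were mapped to mice by title.

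Counts were filtered with filterByExpr (minimum count 10, minimum total 15), scaled by TMM and tested with edgeR 4.0.16 (robust quasi-likelihood, 2-sided, R 4.3.3), with FDR from the Benjamini-Hochberg method across every gene that passed. Calls needed an unadjusted p below 0.05 together with an FDR below 25%, as the study set it for its limma test. Log2 CPM used a prior count of 2. Exact permutation tests ran over all splits or pairings of mice. Intervals are 95% Poisson or Clopper-Pearson and cover counting error only. Nothing in the labels says more than that each library is 1 mouse, so p-values measure the spread between these mice. Alternatives were DESeq2 1.42.0, limma-voom (limma 3.58.1), other filters and scalings, all 9 mice, a replicate block, a sex term and each mouse left out.

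The members and gene lists were chosen with earlier results of these data known. Besides the 9 members, the text names of each other list the 3 genes of highest mean CPM and any with an unadjusted p below 0.05, the 10 genes most like the keratins, and Xist as a check; other genes named were chosen after their values were seen. A gene of the basal layer list that this rule would name is not reported here. Shank3 was counted over the whole gene at 25.7 to 38.5 CPM, which does not check the deletion of exon 11. Shared sequence was counted in words of 50 bases in GENCODE M21 transcripts, and promoters came from RefSeq (GRCm38.p6), which held entries for Krt5, Krt10, Krt14, Dsp and Sfn; that of Krt14 starts inside the annotated gene and was not used.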

Additional observations from a re-analysis of the deposited data

Results flagged for a closer look

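In 44 groups of 4 or 5 mice (9 genes and 13 lists in each genotype), 6 had a mouse whose gap to its nearest neighbour exceeded Dixon's 95% critical value for the group's range. By chance about 1 in 20 of the groups would be flagged, and the groups share their mice. WT4 stood above the other Shank3(+/+) mice for Krt1 at 7.74 CPM (gap 0.873 of the range), for Krt10 at 10.5 CPM (0.902) and for the cornified envelope list at 40.4 CPM (0.923), which Flg leads. KO5 stood above the other Shank3Δ11(-/-) mice for the barrier lipid and tight junction list at 27.5 CPM (0.805), for the general epithelium list at 18.1 CPM (0.761) and for the adipocyte list at 283 CPM (0.910). WT4 and KO5 were also the mice without which the sign of several fold changes turned. For Krt5, Krt14 and Krt15 no mouse was set apart by this measure in either genotype.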

How the results depend on the processing

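No alternative called any of the 9 genes, and 139 of their 160 fold changes under 18 alternatives kept the direction of the 7-mouse fit. An unadjusted p below 0.05 was reached by 1 gene with a replicate block over 9 mice (Dsp, log2 fold change -1.06) and by 1 with a sex term from Xist (Krt10), and by 0 in every other setting. Among all genes tested, that p was reached by 452 of 21735 with this block and by 590 of 21809 with the sex term. Other filters, scalings, DESeq2 and limma-voom turned no sign. With all 9 mice the log2 fold change became -0.072 for Sfn, -0.020 for Trp63 and -0.10 for Perp, and with the sex term -0.032 for Sfn and -0.069 for Perp. Leaving out 1 mouse in turn gave -1.49 to 0.65 for Krt5, -1.10 to 0.45 for Krt14, -1.23 to 0.52 for Dsp, -0.18 to 0.28 for Sfn, -0.16 to 0.39 for Trp63 and -0.32 to 0.48 for Perp. The log2 ratio of the keratin sums, -0.51 with the 7 mice, lay between -0.88 and 0.18, and the within-group SD of single mice was 1.06. The cause was not tested.

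The labels do not say that equal replicate numbers mark a litter or batch. Deviations of same-numbered mice correlated at 0.373, 0.052, 0.357 and 0.101, not all above the 0.1 asked for to treat them as pairs, although 3 of 4 numbers were best matched by their own, a hint from the data and not from the design. With the number as a replicate block in 7 mice, the log2 fold change was 0.83 for Krt5, 0.96 for Krt14, 0.54 for Krt15 and -0.040 for Perp. Among those 7 mice only KO1 with WT1 and KO3 with WT3 share a number. These values therefore rest on those mice alone, and WT4 and KO5 do not enter them. In 9 mice the block gave -0.18 for Sfn, -0.20 for Trp63 and -0.55 for Perp.

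Over all genes, 453 had an unadjusted p below 0.05 and 0 were called. The first count was 972 with no filter and 844 with the block in 7 mice, and 224 (without KO5) to 968 (without KO1) when 1 mouse was left out, with 794 without KO3. In the block of 7 mice the genotypes are compared only through KO1 with WT1 and KO3 with WT3. Calls numbered 1 with no filter, 9 and 2 with the block in 7 and 9 mice, 1 with the sex term, 11 in DESeq2 and 0 to 15 with 1 mouse left out.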
